A study of Homo sapiens with 3 samples.

Results

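The 10 genes described here are 6 desmosomal cadherins (DSC1, DSC2, DSC3, DSG1, DSG2 and DSG3) and 4 plaque genes (DSP, PKP1, PKP3 and JUP), out of 58037 genes in the count table. They were chosen from a list of gene names matched to the table's Ensembl identifiers, and the set was proposed because DSC1 had been seen to be much lower outside the OLFM4-wild library, so the values of DSC1 are a description and support nothing. All 10 were found in the table and all 10 averaged at least 1 CPM (a count divided by the scaled size of its library) over the libraries.

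Desmosomes are the junctions that tie the keratin filaments of neighbouring epithelial cells to each other. Their transmembrane adhesion molecules are the desmosomal cadherins, the desmocollins (DSC) and desmogleins (DSG), which bind across the gap between cells. Inside the cell, plakoglobin (JUP) and the plakophilins (PKP) join the cadherin tails to desmoplakin (DSP), which holds the keratin filaments. In stratified epithelium, DSC3 and DSG3 are known as basal-layer forms, DSC1 and DSG1 as forms of the upper, differentiating layers, and DSC2 and DSG2 as broadly used ones.

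The data are bulk RNA sequencing of RWPE1, an immortalized line of normal human prostate epithelial cells kept in culture. There were 3 libraries, 1 per genotype label (OLFM4-wild type, OLFM4-Knock out and OLFM4-active), which are called wild, knockout and active-labelled below. According to the study's methods, RWPE1 cells were transfected with CRISPR/Cas9 plasmids against or activating OLFM4, the gene of a secreted glycoprotein, grown under puromycin as stable GFP-expressing lines, and sorted for GFP before RNA extraction. The methods name the activation plasmids as the means of making OLFM4-wild reporter cells and do not describe a separate OLFM4-active line, so it is not known here how the cells behind that label differ from the OLFM4-wild cells. The study's results compare knockout reporter cells with OLFM4-wild RWPE1 cells. Whether the wild library came from transfected, selected and sorted cells is not clear here. There were no replicates. A difference between clones or cultures, or in transfection, selection or sorting, cannot be told apart from an effect of the genotype. Each comparison below is therefore between libraries, with no test and no p-value.

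OLFM4 itself had 214 counts in the wild library, 131 in the knockout library and 16 in the active-labelled library, or 11.8, 2.55 and 0.670 CPM. The active-labelled library thus had the lowest OLFM4 level of the 3, which goes against its label. The counts summed to 16309906 in the wild library, 58837147 in the knockout library and 23224216 in the active-labelled library. CPM were taken over library sizes scaled by TMM, a method that assumes most genes do not change. All 5 basal epithelial markers (KRT5, KRT14, TP63, EPCAM and CDH1) were present, with a summed level of 16960 to 37607 CPM, whereas 3 leukocyte markers summed to at most 0.039 CPM with CD3E and LYZ at 0, and 3 endothelium markers summed to 0.084 to 0.605 CPM with CDH5 at 0. Fibroblast markers summed to 22.9 to 34.1 CPM and melanocyte markers to 14.6 to 19.7 CPM, and their part in the results was not tested. Of 3 markers of cardiac muscle, the other tissue known for its desmosomes, MYH6 and MYH7 were at 0 and TNNT2 had 4.42 to 9.03 CPM.

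DSC1 was expressed in the wild library and almost gone from the other ones, DSG1 was lower in both to a smaller degree, and the other 4 cadherins lay within 0.45 of their wild level on the log2 scale. DSC1 had 517 counts in the wild library against 70 and 44 in the knockout and active-labelled libraries. Among the plaque genes PKP3 was higher in the knockout library, and DSP, PKP1 and JUP differed by less than 1.3-fold in any comparison with the wild library when scaled by TMM.

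**Figure D1:**
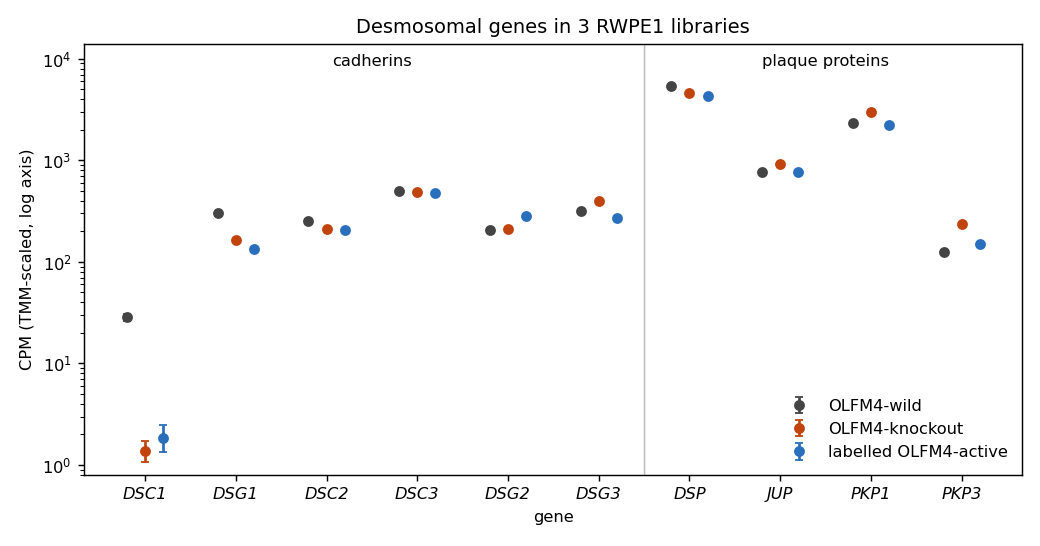
Level of the 10 desmosomal genes in each library, as CPM over TMM-scaled library sizes on a log axis, with 95% counting intervals that are mostly smaller than the points. DSC1 lies at 28.5 CPM in the wild library and at 1.36 and 1.84 CPM in the others, while the other 9 genes stay above 100 CPM in every library.

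The 6 cadherin genes lie in 1 locus on chromosome 18, and the sequence just upstream of their starts is shown here for DSC1, DSG1, DSG3 and DSC3 because these genes share a locus but not a pattern. Each window holds the 250 bases before and 50 bases after the RefSeq start on GRCh38.p14, read 5′ to 3′ on the gene's own strand. DSC1 is at chr18:31162807-31163106 on the minus strand, DSG1 at chr18:31317910-31318209 on the plus strand, DSG3 at chr18:31447491-31447790 on the plus strand and DSC3 at chr18:31042693-31042992 on the minus strand. Capitals mark a run of 20 bases that DSG1 and DSG3 share.
DSC1: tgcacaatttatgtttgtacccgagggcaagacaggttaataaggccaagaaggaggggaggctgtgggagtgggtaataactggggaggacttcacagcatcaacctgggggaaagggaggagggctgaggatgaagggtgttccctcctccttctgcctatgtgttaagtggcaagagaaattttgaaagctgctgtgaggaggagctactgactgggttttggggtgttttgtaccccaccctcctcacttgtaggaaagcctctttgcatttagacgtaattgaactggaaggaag
DSG1: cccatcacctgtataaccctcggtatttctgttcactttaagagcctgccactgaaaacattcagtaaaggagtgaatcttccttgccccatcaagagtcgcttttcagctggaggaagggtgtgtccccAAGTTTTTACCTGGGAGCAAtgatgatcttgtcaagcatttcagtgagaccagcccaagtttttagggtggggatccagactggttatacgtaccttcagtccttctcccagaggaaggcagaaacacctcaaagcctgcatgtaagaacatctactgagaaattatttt
DSG3: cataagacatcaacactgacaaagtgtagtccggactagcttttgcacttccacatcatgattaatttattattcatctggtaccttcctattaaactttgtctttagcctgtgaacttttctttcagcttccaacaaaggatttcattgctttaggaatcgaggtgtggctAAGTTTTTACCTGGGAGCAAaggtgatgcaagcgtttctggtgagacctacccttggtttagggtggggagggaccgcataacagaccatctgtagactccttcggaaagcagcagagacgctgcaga
DSC3: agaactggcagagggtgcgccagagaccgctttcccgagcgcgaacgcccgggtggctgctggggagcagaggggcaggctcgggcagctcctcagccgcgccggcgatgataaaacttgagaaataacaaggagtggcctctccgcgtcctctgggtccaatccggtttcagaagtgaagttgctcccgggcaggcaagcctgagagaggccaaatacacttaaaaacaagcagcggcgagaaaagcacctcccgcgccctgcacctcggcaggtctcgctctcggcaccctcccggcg
The shared run starts 120 bases before the DSG1 start and 78 bases before the DSG3 start, and it was found in those 2 of 35116 windows in the table. Among the 55 pairs of member windows the next longest shared run had 12 bases. The windows of DSC1, DSG1 and DSG3 were poor in G and C, with 50%, 45.7% and 44%, against a median of 58.7% over all windows. They held 2, 3 and 6 CpG dinucleotides against a median of 14. The DSC3 window had 63.3% G and C and 25 CpG, and the windows of DSG2 and DSP had 76.7% and 77.0% with 36 and 37 CpG. DSG1 and DSG3 therefore had windows of like composition, although their levels differed between libraries in unlike ways (below). In all, 9 of the 10 genes had a window, 11 windows together, since DSC2 and JUP have 2 each. The GC box GGGCGG, searched on both strands like the motifs that follow, was in 6 of the 11, in DSC2 (both windows), DSG2, DSP, JUP (1 window) and PKP1, against 45.0% of all windows. The AP-1 motif TGANTCA was in 0 of the 11 windows, where 7.71% of all windows hold it. The same held for the E-box CACGTG, which 7.26% of all windows hold. It held also for the Grainyhead core ACCGGT, at 1.83% of all windows, and for the TATA box TATAAA, at 11.5%. A match or its lack describes these letters in this window only.

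The desmocollins were compared first. DSC1, the desmocollin of the upper layers (ENSG00000134765.9, chromosome 18 from 31129236 to 31162856, minus strand, GRCh38), had 28.5 CPM (95% counting interval 26.1 to 31.0) in the wild library. In the knockout library it had 1.36 CPM (1.06 to 1.72) and in the active-labelled library 1.84 CPM (1.34 to 2.47). These intervals are exact Clopper-Pearson intervals that cover counting error only. Relative to the wild library DSC1 was 20.7-fold lower in the knockout library (log2 fold change -4.37, interval -4.76 to -4.02), with an offset of 0.5 counts as in voom. Of the 16600 genes averaging 1 CPM or more, 17 were lower still in that comparison. In the active-labelled library it was 15.3-fold lower, a log2 fold change of -3.93 (-4.43 to -3.50), with 35 genes lower still. The knockout and active-labelled libraries did not differ beyond counting error, at a log2 fold change of -0.44 (-0.998 to 0.14) between them. In bulk RNA, fewer cells that express a gene and less of its RNA per cell cannot be told apart.

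DSC2, the broadly used desmocollin, had 4638, 10732 and 4916 counts in the wild, knockout and active-labelled libraries, or 255, 209 and 206 CPM. The wild library was the highest, with log2 fold changes of -0.29 (-0.34 to -0.24) and -0.31 (-0.37 to -0.25) against it. DSC3, the basal desmocollin, had 8994, 25122 and 11402 counts, or 495, 489 and 477 CPM. With TMM scaling it stood at -0.02 (-0.05 to 0.02) in the knockout and -0.05 (-0.09 to -0.01) in the active-labelled library on the log2 scale, which became -0.37 and -0.17 with library totals.

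Of the desmogleins, DSG1, the form of the upper layers and a partner of DSC1 there, had 5509 counts in the wild library, 8418 in the knockout library and 3221 in the active-labelled library. These correspond to 303, 164 and 135 CPM. DSG1 was 1.85-fold lower in the knockout library (log2 fold change -0.89, interval -0.94 to -0.84) and 2.25-fold lower in the active-labelled library (-1.17, -1.23 to -1.11). DSG1 and DSC1 were thus the cadherins with the largest differences from the wild library in both comparisons, in the same direction, but DSG1 kept over 100 CPM throughout. DSG2, the broadly used desmoglein, had 3772, 10840 and 6765 counts, or 208, 211 and 283 CPM. It stood apart from the other cadherins by being highest in the active-labelled library, with a log2 fold change of 0.45 (0.39 to 0.51), whereas the knockout library could not be told from the wild one by counting error (0.02, -0.03 to 0.08, and -0.33 with totals). DSG3, the basal desmoglein, had 5718, 20305 and 6527 counts, or 315, 396 and 273 CPM. It was highest in the knockout library, at 0.33 (0.29 to 0.37) over wild with TMM and -0.02 with library totals in place of TMM, and lower than wild in the active-labelled library, at -0.20 (-0.26 to -0.15).

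DSP, PKP1 and JUP took most of the counts of the set, and PKP3 the fewest of the plaque genes. DSP, the link to keratin (chromosome 6), had 97152 counts in the wild library, 235915 in the knockout and 103720 in the active-labelled library, or 5347, 4596 and 4341 CPM. Its log2 fold changes against wild were -0.22 (-0.23 to -0.21) and -0.30 (-0.31 to -0.29). JUP, plakoglobin (chromosome 17), had 13930, 47220 and 18373 counts, or 767, 920 and 769 CPM. The knockout library was higher by 0.26 (0.24 to 0.29) on the log2 scale with TMM but not with totals (-0.09), and the active-labelled library was level with wild (0.00, -0.03 to 0.04).

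PKP1, a plakophilin abundant in stratified epithelium (chromosome 1), had 42465, 152601 and 52820 counts, or 2337, 2973 and 2211 CPM. Its log2 fold change in the knockout library was 0.35 (0.33 to 0.36) with TMM and -0.01 with totals, and -0.08 (-0.10 to -0.06) in the active-labelled library. PKP3, a plakophilin that can bind a wide range of desmosomal proteins (chromosome 11), had 2279, 12250 and 3592 counts, or 125, 239 and 150.3 CPM. It was the highest-ranking of the 10 genes in the knockout library, 1.90-fold above wild (log2 fold change 0.93, interval 0.86 to 0.99, and 0.58 with totals), with 1199 of the 16600 genes higher still. In the active-labelled library PKP3 was also above wild, by 0.26 (0.19 to 0.34).

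**Figure D2:**
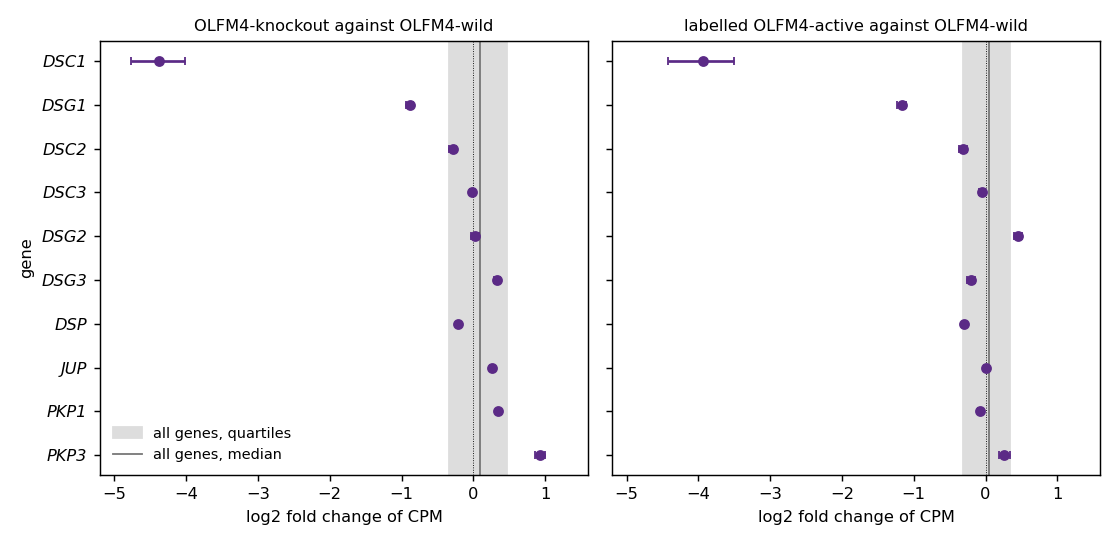
Log2 fold change of each gene in the knockout library (left) and the active-labelled library (right) against the wild library, with 95% counting intervals, beside the median (grey line) and quartiles (grey band) of all 16600 genes averaging 1 CPM or more. DSC1 and DSG1 lie below the band in both panels, PKP3 lies above it on the left at 0.93, and DSG2 lies above it on the right at 0.45.

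Set beside all genes, the 10 genes did not move as a block. In the knockout against the wild library, 1 of the 10 (DSC1) lay below a log2 fold change of -1, where 7.56% of the 16600 genes did, and 0 lay above 1, where 5.77% did. DSC1 was the gene the set was proposed for, so nothing is read from that count. The counting interval lay above 0 for 4 genes (DSG3, PKP1, PKP3 and JUP) and below 0 for 4 (DSC1, DSC2, DSG1 and DSP), and included 0 for DSC3 and DSG2, where 42.4% and 29.8% of all genes lay above and below. The median of the 10 was 0.00 against 0.10 for all genes with TMM. With library totals the median of all genes was -0.26, so changes are best read against it, and by that measure 4 of the 10 genes lay above the median of all genes and 6 below. Without DSC1 the other 9 genes had a median of 0.02, with 4 above and 5 below the median of all genes. The 6 cadherins had a median of -0.15 and the 4 plaque genes of 0.31. Without DSC1 the median of the cadherins was -0.02.

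In the active-labelled library against the wild library, 2 of the 10 genes (DSC1 and DSG1) lay below -1, where 6.73% of all genes did. Above 1 lay 0 of the 10, where 3.78% of all genes did. The set was proposed for DSC1, and without it 1 of 9 genes lay below -1, so nothing is read from that count. The interval lay above 0 for 2 genes (DSG2 and PKP3), below 0 for 7, and included 0 for JUP, with 35.2% and 28.1% of all genes above and below. The median of the 10 was -0.14 against 0.05 for all genes, and 8 of the 10 lay below the median of all genes. Without DSC1 the median was -0.08, and 7 of 9 lay below that of all genes. The cadherins had a median of -0.26, or -0.20 without DSC1, and the plaque genes of -0.04. This comparison shares its wild library with the one before, so that a value peculiar to the wild library enters both.

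The direct comparison of the knockout library with the active-labelled library does not use the wild library. In it 0 of the 10 genes lay above 1 and 0 below -1, against 2.95% and 3.39% of all genes. The largest differences were those of PKP3, at 0.67 (0.61 to 0.72), and DSG3, at 0.53 (0.49 to 0.57), both higher in the knockout library, and the interval lay above 0 for 7 genes, where 39.8% of all genes did. DSG2 was the 1 gene whose interval lay below 0, at -0.42 (-0.47 to -0.38), where 28.0% of all genes did. All 4 plaque genes lay above 0 here, but DSP by only 0.08 (0.07 to 0.09), which turned to -0.16 with library totals. The median of the 10 genes was 0.17 against 0.08 for all genes, so that DSP lay level with the latter. Of the 10 genes, 6 lay above the median of all genes and 4 below. DSC1 and DSC2 were not distinguishable between these libraries by counting error.

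Ratios within a library do not depend on the scaling between libraries. Of the desmocollin counts, DSC1 made up 3.65% (95% interval 3.35 to 3.98) in the wild library, 0.195% (0.152 to 0.246) in the knockout library and 0.269% (0.195 to 0.361) in the active-labelled library. DSC3 took 63.6%, 69.9% and 69.7% of the desmocollin counts in the same order and DSC2 32.8%, 29.9% and 30.0%. DSC1 was thus the minor desmocollin in each library, and its lower level changed the family's total little.

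The makeup of the desmogleins differed more. DSG1 and DSG3 had near-equal counts in the wild library, 36.7% and 38.1% of the family, with 96.3 DSG1 counts per 100 of DSG3. In the knockout library DSG1 took 21.3% and DSG3 took 51.3%, or 41.5 DSG1 counts per 100 of DSG3. The active-labelled library had a like DSG1 share of 19.5%, but there DSG2 was the leading desmoglein with 41.0%, against 25.1% in the wild and 27.4% in the knockout library. The lower share of DSG1 was thus met by a higher share of DSG3 in the knockout and of DSG2 in the active-labelled library.

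The plakophilins kept their order in each library. PKP1 held 93.3%, 90.0% and 89.6% of the counts over PKP1, PKP2 and PKP3, and PKP3 held 5.01%, 7.23% and 6.10%. PKP2, the plakophilin of simple epithelia and heart, held 1.70%, 2.75% and 4.27%. The ratio of DSP to JUP went from 697 DSP counts per 100 of JUP in the wild library to 499.6 in the knockout and 565 in the active-labelled library. Cadherin counts per 100 plaque counts were 18.7, 16.9 and 18.4.

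**Figure D3:**
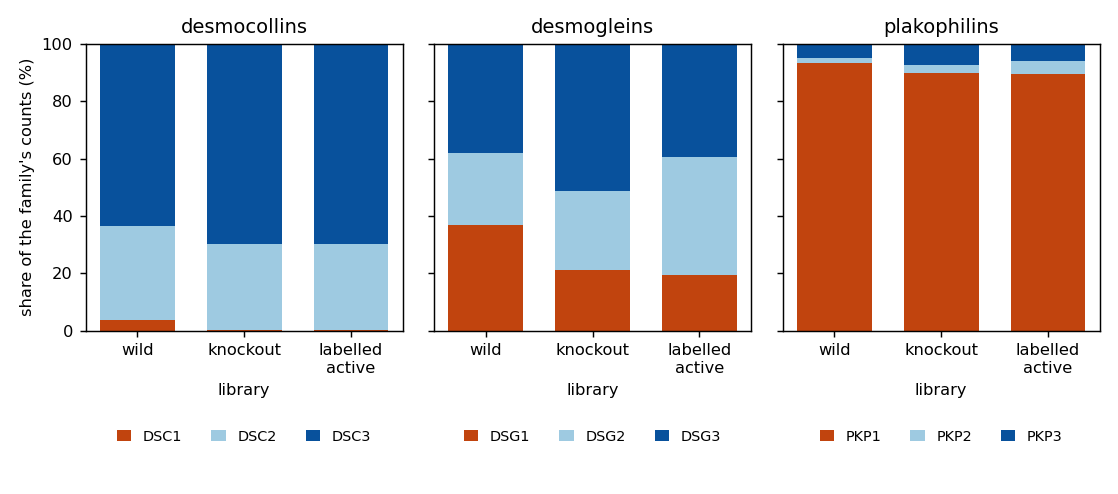
Share of each family's counts (%) taken by its members in the wild, knockout and active-labelled libraries, as stacked bars. DSG1 takes 36.7% of desmoglein counts in the wild library and 21.3% and 19.5% in the others, and DSC1 takes 3.65% of desmocollin counts in the wild library and under 0.3% in the others.

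Levels can be compared between genes only per length, here as CPM per kilobase of merged exons. DSP (393) and PKP1 (376) were the highest in the wild library, at ranks 42 and 46 of 19629 protein-coding genes. JUP followed with 155, DSC3 with 64.3, DSG3 with 56.4, DSG1 with 41.0, PKP3 with 33.0, DSG2 with 21.9, DSC2 with 20.4 and DSC1 with 6.66 CPM per kilobase, at rank 5021. In both other libraries PKP1 stood above DSP, at 479 against 337 in the knockout and 356 against 319 in the active-labelled library, although with the length of the longest transcript DSP (448) stayed above PKP1 (406) in the latter. DSG1 went from rank 618 in the wild library to 1730 and 1963 in the knockout and active-labelled libraries, and DSC1 to 12301 and 11972. PKP3 went from rank 788 to 533 in the knockout library, where its 62.9 CPM per kilobase could not be told from the 63.6 of DSC3 by counting error, nor the 22.2 of DSG1 from the 22.3 of DSG2. The order of close neighbours also depends on the length used. With the longest transcript PKP3 (44.5) stood above DSG1 (42.2) in the wild library. In the knockout library that length put PKP3 (84.7) above DSC3 (64.5) and DSG2 (37.1) above DSG1 (22.8), so neither tie held. Together the 10 genes took 1.13% of all counts in the wild library, 0.890% in the knockout library and 0.910% in the active-labelled library.

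The cadherin locus spans 559.6 kb of chromosome 18, from 30989365 to 31549008. The desmocollins lie on the minus strand in the order DSC3, DSC2 and DSC1, and the desmogleins on the plus strand in the order DSG1, DSG4, DSG3 and DSG2. The library kit keeps the strand of the RNA and the reads were counted by strand, and no gene on the same strand overlaps a member. Of 15 annotated genes between the outer ends 14 were in the table, and 10 of these had 10 or more counts in a library. DSC1 ends 173 kb and DSG1 starts 329 kb from the outer end of DSC3, with no other desmosomal cadherin gene between them. An unnamed long noncoding RNA on the opposite strand inside DSC1 (ENSG00000263698) had 44, 8 and 0 counts in the wild, knockout and active-labelled libraries, and DSCAS, which starts inside DSC2 and runs opposite to the whole of DSC1, had 18, 8 and 5. The intervals are wide at such counts, with a log2 fold change in the knockout library of -3.89 (-5.26 to -2.86) for the first and -2.62 (-4.08 to -1.39) for DSCAS.

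DSG1-AS1, on the strand opposite to DSG1, had 552, 956 and 306 counts, a log2 fold change of -0.71 (-0.86 to -0.55) in the knockout and -1.25 (-1.45 to -1.04) in the active-labelled library. It followed DSG1 closely, with 10.02, 11.4 and 9.50 antisense counts per 100 of DSG1. DSG2-AS1 had 222, 619 and 509 counts, and at 5.89, 5.71 and 7.52 per 100 of DSG2 it shared with DSG2 the higher level in the active-labelled library. Their exons overlap those of the cadherins in part, and how much of the antisense counts is spillover from the sense strand was not tested. DSP-AS1, opposite DSP on chromosome 6, had 40, 165 and 68 counts, under 0.1 per 100 of DSP. DSG4, the desmoglein of hair and nail, had 3, 3 and 0 counts, at or under the floor of 3 counts, so no fold is given. Of the nearest protein-coding genes on either side, CDH2, the neural cadherin, had 232, 350 and 180 counts (log2 fold change -0.91, interval -1.15 to -0.66, in the knockout library), B4GALT6 had 34, 121 and 75 counts (0.32, -0.23 to 0.93), and AQP4, CHST9, TTR and SLC25A52 had 0 counts in each library.

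**Figure D4:**
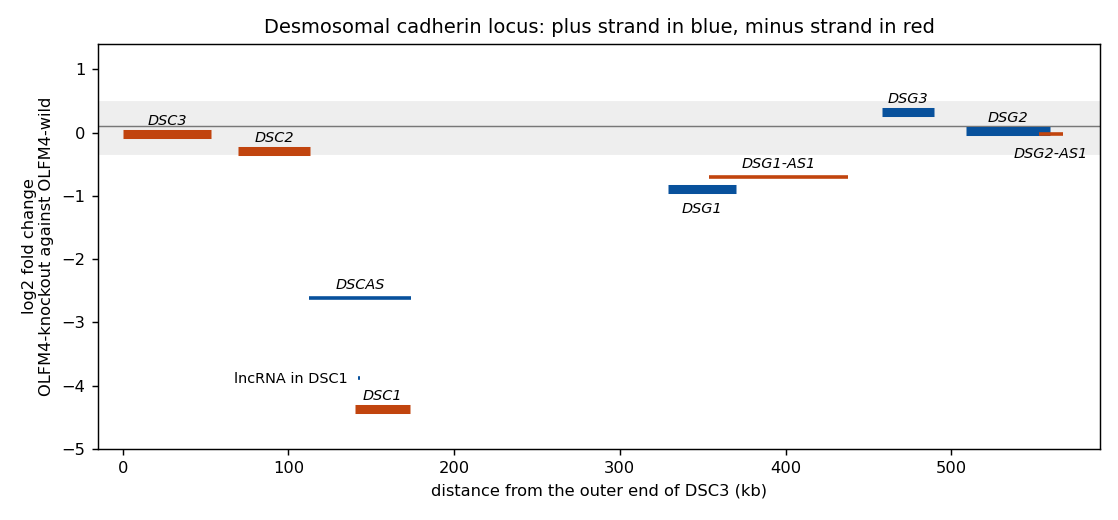
Genes of the desmosomal cadherin locus with 10 or more counts in a library, drawn to scale by their distance from the outer end of DSC3 (kb) and at the height of their log2 fold change in the knockout against the wild library. Thick bars are protein-coding genes and thin bars long noncoding RNAs, blue on the plus and red on the minus strand, and the grey line and band are the median and quartiles of all genes. DSC1 at -4.37 and the antisense RNAs that overlap it, which average under 1 CPM, lie lowest. DSG1 and DSG1-AS1 lie at -0.89 and -0.71, and the genes at both ends lie within the band.

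The 3 genes whose pattern over the 3 libraries was nearest to that of DSC1, by Euclidean distance of centred log2 CPM among 10596 genes averaging 10 CPM or more, were PI3, MUC16 and FLG. PI3, the elastase inhibitor elafin and a cornified envelope component, had 98.7, 5.44 and 8.62 CPM (distance 0.298). MUC16, a transmembrane mucin, had 44.5, 1.75 and 3.52 CPM (0.399), and FLG, the profilaggrin of the granular layer, had 191, 5.92 and 6.49 CPM (0.680). All 3 genes reached a mean of 10 CPM only through the wild library, as did DSC1. With 3 libraries, likeness of pattern means only that the wild library was high and the others were low.

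Other genes of the desmosome and of the junctions around it were taken from lists of known members. CDSN encodes corneodesmosin, which coats the desmosomes of the outermost layers, and had 305, 160 and 74 counts, or log2 fold changes of -2.43 (-2.71 to -2.15) in the knockout and -2.43 (-2.82 to -2.07) in the active-labelled library. PKP2 lay on the other side, with 774, 4658 and 2518 counts and log2 fold changes of 1.09 (0.98 to 1.20) and 1.31 (1.19 to 1.43). With totals these were 0.74 and 1.19. PERP, a desmosomal membrane protein, gave 0.21 with TMM and -0.14 with totals in the knockout library and -0.56 in the active-labelled library. Of this list of 4 genes 3 reached a mean of 1 CPM, with 1 above 1 and 1 below -1 in each of these comparisons. Among all genes 5.77% lay above 1 and 7.56% below -1 in the knockout library, and 3.78% and 6.73% in the active-labelled library.

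Of 11 adherens junction genes, 0 lay above 1 and 1 below -1 in the knockout library, beside 5.77% and 7.56% of all genes. Their median was 0.09 against 0.10 for all genes. In the active-labelled library the median was 0.25 against 0.05. There 1 lay above 1 and 1 below -1, beside 3.78% and 6.73% of all genes. CDH1, E-cadherin, had log2 fold changes of 0.30 (0.26 to 0.35) and 0.35 (0.30 to 0.40) with TMM, and -0.05 and 0.24 with totals. CDH3, P-cadherin, gave 0.47 and 0.06, the latter turning to -0.06 with totals. VCL, vinculin, was higher in both, at 0.91 and 1.36, and NECTIN4, a nectin, was lower in both, at -1.22 and -1.81.

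The keratins and plakins that desmoplakin meets, 9 genes, had a median of 0.999 in the knockout library, with 4 above 1 and 1 below -1, beside 0.10, 5.77% and 7.56% for all genes. In the active-labelled library the median was 0.10, with 0 above 1 and 1 below -1, beside 0.05, 3.78% and 6.73% for all genes. KRT14 and KRT5, the basal keratin pair, were higher in the knockout library at 1.27 and 1.15, and KRT1, a suprabasal keratin, was lower at -2.53, while KRT10, its partner, stood at 0.13 (0.11 to 0.15) and at -0.22 with totals. In the active-labelled library these 4 genes gave 0.47, 0.16, -1.75 and -0.53. With library totals every log2 fold change in the knockout library was lower by a like amount, those of KRT14 and KRT5 included. The count of 4 genes above 1 in that library therefore depends on the scaling. DSP, which anchors both kinds of filament, was lower than wild in each library.

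Of the suprabasal differentiation list, 9 of 10 genes reached a mean of 1 CPM. In the knockout library 6 of the 9 lay below -1 and 1 above 1, with a median of -1.10, beside 7.56% and 5.77% of all genes and their median of 0.10, and in the active-labelled library 5 lay below -1 and 0 above 1, with a median of -1.75, beside 6.73% and 3.78% of all genes and their median of 0.05. FLG was lower at -5.01 and -4.88, KRTDAP, a peptide of differentiating keratinocytes, at -3.89 and -4.65, and SBSN, suprabasin, at -3.36 and -2.70. TGM1, a transglutaminase that cross-links the cornified envelope, was the gene above 1 in the knockout library, at 1.04 (0.68 with totals), and gave -0.18 in the active-labelled library. KRT1 and KRT10 count under both lists, and KRT10 and TGM1 were chosen after their values were seen. DSC1 lay within the range of FLG, KRTDAP and SBSN in both comparisons, and DSG1 was closer to the median of the list. FLG, KRTDAP and SBSN were named for their large changes and DSC1 was chosen for its fall. Their likeness was thus largely set by that choice, and nothing is read from it. That genes of this kind were low in these libraries was known when the list was written, so it is no independent evidence of a direction.

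**Figure D5:**
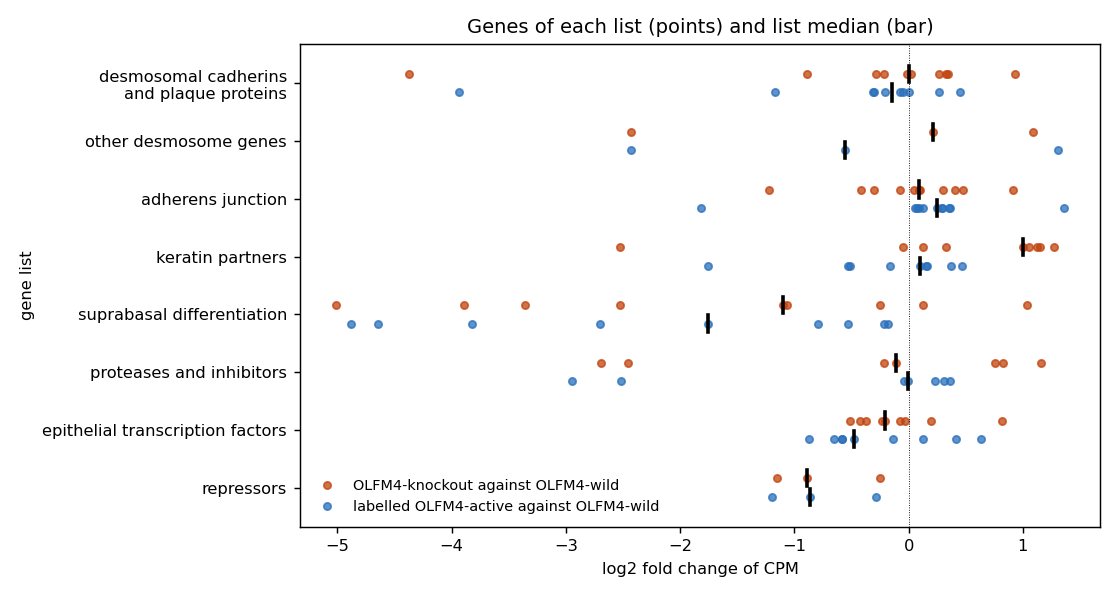
Log2 fold change against the wild library of the genes averaging 1 CPM or more in each list (points), in the knockout library and the active-labelled library, with the median of each list as a black bar. The suprabasal list has medians of -1.10 and -1.75, whereas the 10 desmosomal genes, with medians of 0.00 and -0.14, lie within 0.5 of 0 apart from DSC1, DSG1 and, in the knockout library, PKP3.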

How the data were processed

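RWPE1 RNA was measured in 3 libraries. The authors trimmed reads with cutadapt, aligned them with HISAT2 to GRCh38 and deposited whole-number counts of uniquely mapped, reverse-stranded read pairs per gene from featureCounts, without normalization. Columns were assigned by their names. Of 58037 genes, 56948 (98.1%) matched GENCODE 44, the source of positions and lengths; the annotation release behind the counts is not given in the sources used here. TMM factors (1.11, 0.872 and 1.03 for wild, knockout and active-labelled) came from edgeR 4.0.16 in R 4.3.3, and the remainder used Python 3.11.15 with scipy 1.17.1. Log2 fold changes use an offset of 0.5 counts. With 1 library per group no test was run. Intervals are 95% Clopper-Pearson, conditional for fold changes, and, like the floor of 3 counts (0.165, 0.0584 and 0.126 CPM), cover counting error only. The text names the 10 members, locus genes with 10 or more counts, 5 related junction genes, up to 3 genes per list with the largest change in the knockout library, and the 3 genes most like DSC1. A result named by this rule is not reported here. Members and lists were chosen with earlier results of these data known. The interval procedure was tested on simulated data, where 95.3% to 95.7% of intervals over 16600 genes covered the true value. Promoters came from RefSeq, where PKP3 was not found. Protein sequences were not analysed here. Alternatives were library totals, DESeq2 1.42.0 size factors, upper quartile factors, library sizes without the 10 most abundant genes, offsets of 1 and 5 counts, libraries thinned to 16309906 counts (median of 21 draws), other filters on low genes, and other gene lengths.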

Additional observations from a re-analysis of the deposited data

How the results depend on the processing

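No paired analysis was possible because each group has 1 library. With no replicates, clone, culture, transfection, selection, sorting and library preparation cannot be told apart from genotype. DSC1 had only 70 and 44 counts outside the wild library, although both other libraries were deeper than the wild one. DSC1 lay between -4.73 and -4.30 in the knockout and between -4.07 and -3.81 in the active-labelled library against wild under every setting tried, and DSG1 between -1.24 and -0.87 and between -1.30 and -1.15. Offsets of 1 and 5 counts and thinning moved no member's fold change beyond its interval. Scaling did, by its construction moving all genes alike. With library totals the median of the 10 genes went from 0.00 to -0.35 in the knockout against wild, from -0.14 to -0.26 in the active-labelled against wild and from 0.17 to -0.067 in the knockout against the active-labelled library. Upper quartile factors gave -0.083 for the first and 0.065 for the last. Library sizes without the 10 most abundant genes gave -0.25, -0.27 and 0.043. Genes beyond a log2 fold change of 1 in the knockout library went from 1 to 2 (DSC1 and DSG1) with library totals and without the 10 most abundant genes. With totals DSG3 (-0.023), PKP1 (-0.0056) and JUP (-0.090) changed direction in the knockout against wild. Of the genes whose interval included 0, DSG2 went from 0.025 to -0.33 there, and DSC2 from 0.023 to -0.21 against the active-labelled library. Against the active-labelled library DSC3 and DSP changed direction with totals (-0.20 and -0.16), upper quartile factors (-0.069 and -0.023) and without the 10 most abundant genes (-0.091 and -0.045). The share of all genes beyond 1 in either direction went from 13.3% to 34.4% with no filter and 7.64% at 10 CPM in the knockout against wild, from 10.5% to 37.1% and 4.84% in the active-labelled against wild, and from 6.34% to 30.5% and 3.14% between the knockout and active-labelled libraries. Per kilobase, in the order wild, knockout and active-labelled, DSC1 took 7.29%, 0.396% and 0.547% of the desmocollins, DSG1 34.4%, 19.2% and 18.8% of the desmogleins and PKP3 7.99%, 11.4% and 9.76% of the plakophilins.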

Other observations

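The proteases and inhibitors that act on desmosomal proteins did not move together. Of 8 genes in this list 7 averaged 1 CPM or more, with medians of -0.11 in the knockout library and -0.01 in the active-labelled library, against 0.10 and 0.05 for all genes. KLK7, a kallikrein that cleaves corneodesmosin and desmocollin 1, had 120, 52 and 20 counts in the wild, knockout and active-labelled libraries, or log2 fold changes of -2.70 (-3.20 to -2.22) and -2.95 (-3.74 to -2.29). SPINK5, which encodes the inhibitor of these kallikreins, was lower by a like amount, at -2.46 (-2.57 to -2.35) and -2.52 (-2.67 to -2.38). KLK5, a kallikrein that activates KLK7, went the other way in the knockout library, at 1.16 (0.94 to 1.39), and was level with wild within counting error in the active-labelled library, at -0.04 (-0.32 to 0.24).

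Of 9 transcription factors of stratified epithelium, 0 lay beyond a log2 fold change of 1 in either direction against the wild library. Among all genes 13.3% did in the knockout and 10.5% in the active-labelled library. The 9 genes had medians of -0.21 in the knockout and -0.48 in the active-labelled library, against 0.10 and 0.05 for all genes. The counting interval lay below 0 for 5 and 6 of them, beside 29.8% and 28.1% of all genes. It lay above 0 for 2 and 3, beside 42.4% and 35.2% of all genes. KLF5 was higher in both, at 0.82 and 0.63, and KLF4 was lower in both, at -0.51 and -0.87. Of 5 repressors of epithelial adhesion genes, 3 averaged 1 CPM or more, and their medians were -0.89 and -0.86, against 0.10 and 0.05 for all genes. In each comparison 1 of the 3 lay below -1, beside 7.56% and 6.73% of all genes. Above 1 lay 0 of the 3, beside 5.77% and 3.78%. ZEB1 had 44, 56 and 25 counts and log2 fold changes of -1.15 (-1.75 to -0.55) and -1.20 (-1.98 to -0.47), SNAI2 gave -0.89 and -0.28, and TWIST1 gave -0.25 (-0.52 to 0.04) and -0.86.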
